A study of Drosophila melanogaster with 6 samples.

Results

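The comparison described here is between the male foreleg at 16 h and at 20 h after puparium formation in Drosophila melanogaster, measured by single-cell RNA sequencing of the first tarsal segment. Barcodes with at least 500 detected genes and at most 10% of UMIs (unique molecular identifiers, each a tag for 1 captured RNA molecule) from mitochondrially encoded genes were kept as cells. This left 11820 of 12000 barcodes at 16 h and 10610 of 12000 at 20 h, 22430 cells of the 45539 in the 4 male libraries read here. The series holds 6 samples of this segment at several pupal ages, 2 of them female. Both libraries were male. The 16 h pupae carried dsx-GAL4 > UAS-GFP and the 20 h pupae dsx-GAL4 > UAS-mCherry, so that in each a reporter was driven in cells that express doublesex. The male libraries at 12 h and 36 h, whose levels are given beside the results, also carried dsx-GAL4 > UAS-mCherry. Each library was made from a pool of 65 to 70 dissected segments with Chromium 3′ v3.1 chemistry, after 35 min of enzymatic dissociation at 37°C (45 min for the 36 h library). There was 1 library per age, so no difference here has a replicate check and no test was run. Age, reporter genotype and library preparation changed together between 16 h and 20 h and cannot be told apart.

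In this window the pupal leg epithelium has everted and is past the prepupal stage, and the adult cuticle is not yet laid down. Pulses of the steroid hormone ecdysone time these steps through a cascade of nuclear receptors. Sensory organ precursors, single cells chosen from the epithelium by Notch signalling, divide to give the neuron, sheath, shaft and socket of each bristle. In males the first tarsal segment carries the sex comb, a row of modified bristles that forms under the control of the Hox gene Scr and the sex determination gene doublesex.

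The kept cells held 67454195 UMIs at 16 h, with a median of 5169 UMIs and 1201 genes per cell, and 116451362 UMIs at 20 h, with a median of 10472.5 UMIs and 1761 genes. Under the gene minimum lay 154 barcodes at 16 h and 1329 at 20 h, and over the mitochondrial limit 28 and 122, some of them in both sets. The reporters matched the labels. GFP had 3393 UMIs at 16 h and 0 at 20 h, and mCherry had 0 UMIs at 16 h and 26259 at 20 h. A barcode was shared by 35 cells of both libraries, 0.296% of the 16 h cells. The reporters and GAL4 were left out of all genes and totals below. Leg genes were present at both ages. Dll, a distal leg selector, had 219.8 CPM (UMIs scaled to a library total of 1000000) at 16 h and 249 at 20 h. The foreleg Hox gene Scr had 272 and 273. Of 6 fat body markers, apolpp alone reached a mean of 1 CPM. It had 5.23 CPM at 16 h and 11.1 at 20 h.

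UMIs were summed over all cells of a library for each gene and expressed as CPM. A log2 ratio is the 20 h value over the 16 h value, and a gene was counted as higher or lower at 20 h when this ratio was at least 1 or at most -1. Intervals are exact 95% intervals and cover counting error only. In cells summed over a library, fewer cells of a type and less RNA per cell cannot be told apart. Of 8238 genes with a mean of at least 1 CPM, 548 (6.65%) were higher at 20 h and 1160 (14.1%) were lower. The median log2 ratio over these genes was -0.24, with 3000 genes above 0 and 5238 below. Past a log2 ratio of 2 in either direction there were 120 and 148 genes. Scaling by TMM (trimmed mean of M values), which centres the bulk of genes, moved every ratio up by 0.21 and gave 786 higher and 749 lower genes. The split between higher and lower genes thus turns with the scaling. Totals without ribosomal protein and mitochondrial genes moved every ratio by -0.10. A ratio between -0.21 and 0.10 therefore takes the other sign under 1 of these scalings.

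**Figure D1:**
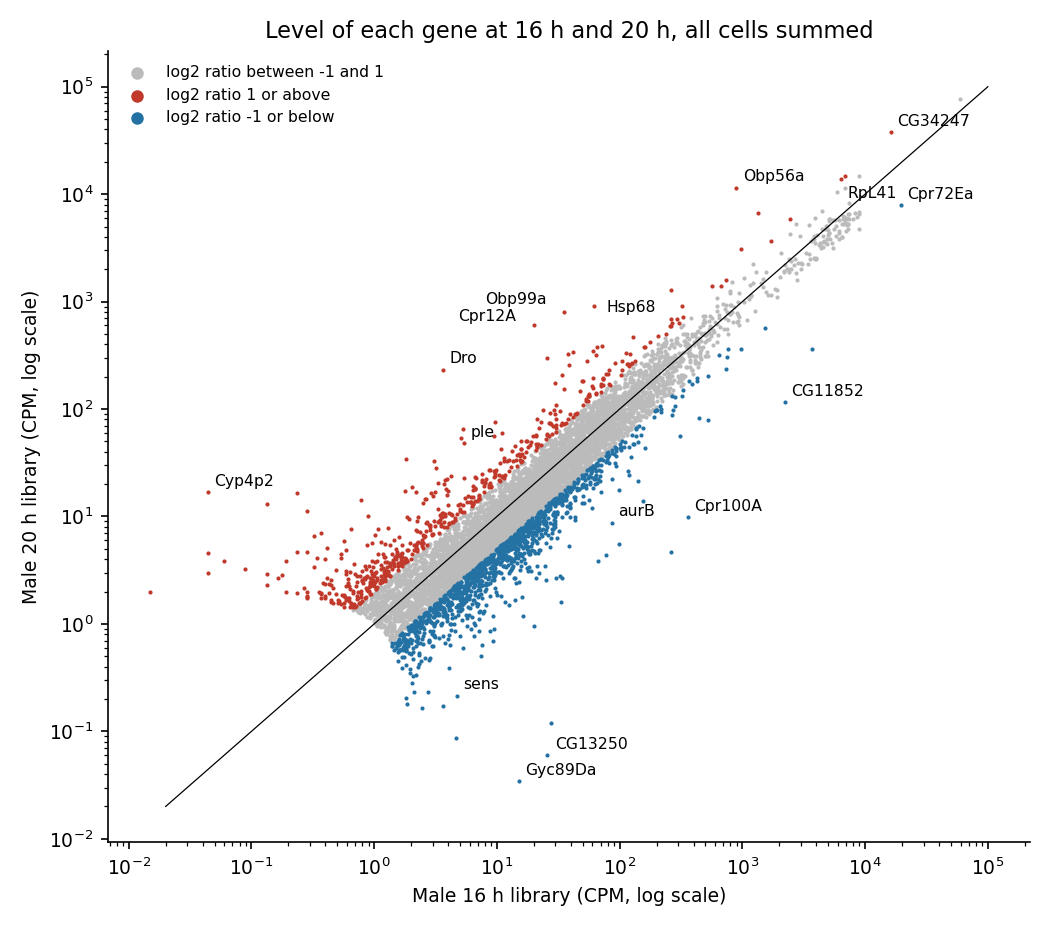
CPM of each tested gene with UMIs in both libraries, 16 h on the x axis and 20 h on the y axis, both log scales; the line marks equal levels. Red genes have a log2 ratio of at least 1 (548 over all tested genes) and blue genes of at most -1 (1160). Cyp4p2 and Dro lie far above the line and CG13250, Gyc89Da and Cpr100A far below it.

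Clusters named epithelium-like from their markers held 7406 cells at 16 h and 6692 at 20 h. All 3 unnamed clusters at 16 h and 3 of the 4 at 20 h also carried epithelial markers. They were left unnamed for low depth or for leading genes of another class. Some of these unnamed clusters also carried at least 3 markers of another class, which were read before the epithelial ones. Within these epithelium-like cells 7655 genes passed the same minimum, of which 510 (6.66%) were higher at 20 h and 1187 (15.5%) lower, with a median of -0.28. Under TMM scaling the counts were 766 and 685. Among the 7635 genes tested in both views, 397 were higher in both, 90.4% of those higher over all cells and 78.6% of those higher in epithelium-like cells. The corresponding figure for lower genes was 981, or 91.2% and 83.2%.

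The largest ratios belonged to genes that were almost undetected at 16 h. Cyp4p2, a family 4 cytochrome P450 on 2R from 9237512 to 9239831, had 3 UMIs at 16 h and 1962 at 20 h, or 0.0445 and 16.9 CPM (log2 ratio 8.34, 95% interval 7.02 to 10.85). The 12 h and 36 h male libraries had 17.5 and 16.6 CPM, so of the 4 male libraries the GFP-carrying one at 16 h was the exception. Its neighbour Cyp4p1, which starts 210 bases further on, had 4 and 444 UMIs, with 2.25 CPM at 12 h and 3.49 at 36 h. Reads shared by these related neighbours could be split between them in the counting. CG42841 had 1 and 232 UMIs (log2 ratio 6.49, 95% interval 4.58 to 12.38), and its level at 36 h was 9.43 CPM. CG2816 had 6 and 380 UMIs, 96.1% of the latter in epithelium-like cells, and CG5909 had 19 and 1323 UMIs.

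Several antimicrobial peptide genes lay at the same end of the distribution. These small secreted peptides are made by epithelia, hemocytes and fat body in response to microbes and wounding. Of the 22 listed genes with UMIs, 8 reached a mean of 1 CPM, and 6 of these had under 1 CPM at 1 of the ages. Those 6 could pass the minimum only through the other age, so no count or median is read from the list. Dro, which encodes Drosocin, had 3.65 CPM at 16 h and 232 at 20 h (log2 ratio 5.99, 95% interval 5.81 to 6.18). DptA, a diptericin, went from 0.237 to 16.6 CPM, AttA, an attacin, from 3.08 to 33.0, and the cecropin CecC from 0.133 to 12.9. CecA1 and CecC lie 5.21 kb apart on 3R and belong to a family of close copies, so their counts are uncertain. Def, the defensin gene, moved the other way, from 3.62 to 0.172 CPM (log2 ratio -4.36, 95% interval -5.13 to -3.74).

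The antimicrobial transcripts lay in few cells. At 20 h the 1% of cells with the most Dro UMIs held 85.3% of all Dro UMIs, while 17.3% of cells had at least 1. DptA was detected in 0.622% of 20 h cells and CecC in 0.886%. In epithelium-like cells Dro had 4.99 CPM at 16 h and 323 at 20 h, and in hemocyte-like cells 1.74 and 189. The CecC level was 2.61 CPM in hemocyte-like cells at 16 h and 140.4 at 20 h, beside 11.9 in epithelium-like cells at 20 h. At 12 h Dro had 8.91 CPM and CecC 19.5, and at 36 h they had 9.59 and 0.299, so for Dro the 20 h library stood above the other 3 male libraries. With 1 pool of animals per age, variation between animals was not tested.

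Large gains in level were found in genes of unlike breadth at 16 h. CG34247 and CG13053, which lie 1.46 kb apart on 3L, had 16148 and 6864 CPM at 16 h and 37725 and 14689 at 20 h. Both were detected in most cells at 16 h, CG34247 in 99.5% and CG13053 in 95.7%. By 36 h they had 102 and 341 CPM. Obp56a, an odorant-binding protein gene, had 16.5 CPM at 12 h, 894 at 16 h, 11519 at 20 h and 998 at 36 h. This is a log2 ratio of 3.69 between 16 h and 20 h. At least 1 Obp56a UMI was found in 43.7% of cells at 16 h and 99.6% at 20 h. Detection also depends on depth, with a median of 5169 UMIs per cell at 16 h and 10472.5 at 20 h. In epithelium-like cells Obp56a had 1306 and 15665 CPM. Glia-like cells had 67.9 and 1642 CPM, and the part of free RNA in the other classes was not tested. Obp99a had 35.3 and 792 CPM, with 53.2% of its 20 h UMIs in 1% of cells.

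The odorant-binding protein list, which includes Obp56a and Obp99a, had 10 tested members, of 44 with UMIs. The other 2 of its 4 higher members were Obp99c and Obp83ef, and 2 members were lower. Obp99c had 144 CPM in hemocyte-like cells at 16 h and 1444 at 20 h, against 0.246 and 5.29 in epithelium-like cells. Over all cells it stood at 5.11 and 53.4 CPM and at 705 by 36 h. Obp83g was lower, at 43.6 CPM and then 14.3.

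Among the smallest ratios were genes seen almost only in the 16 h library. CG13250 was counted 1732 times at 16 h and 7 times at 20 h (log2 ratio -8.64, 95% interval -10.05 to -7.69), and its level was 0.0281 CPM at 12 h and 0.0597 at 36 h. Gyc89Da, a guanylate cyclase subunit on 3R from 16472601 to 16475477, had 15.1 CPM at 16 h, 0.0344 at 20 h, 0.0843 at 12 h and 0.469 at 36 h. The antisense RNA asRNA:CR46487 had 27.5 CPM at 16 h and 0.120 at 20 h; no source used here states whether counting used strand, so reads of a partner gene could be in it. Pdh, photoreceptor dehydrogenase, had 4.61 and 0.0859 CPM. These genes were high in the library whose pupae carried GFP and low in the 3 male libraries with mCherry, and age and genotype cannot be told apart for them.

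A second group of lower genes was already lower at 16 h than at 12 h. CG11852 had 5945 CPM at 12 h, 2235 at 16 h, 116 at 20 h and 2.27 at 36 h. CG1850 followed the same order, at 10181, 3709, 359 and 3.47 CPM. CG12998 had 264 CPM at 16 h and 4.67 at 20 h, after 1248 at 12 h. For these 3 genes each later male library held less than the one before.

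CPR proteins carry a chitin-binding domain and form the protein part of the cuticle, and individual genes are used at set stages. Of 33 tested CPR genes, from 92 with UMIs, 17 were lower at 20 h and 5 were higher, with a median log2 ratio of -1.02 beside -0.24 over all genes tested. Of these 33, 4 had under 1 CPM at 1 of the ages and passed only through the other. The summed level of the 92 CPR genes was 21244 CPM at 16 h and 9271 CPM at 20 h. Cpr72Ea alone made up most of this sum at both ages. Cpr100A had 7590.2 CPM at 12 h, 363 at 16 h and 9.81 at 20 h (log2 ratio -5.21, 95% interval -5.30 to -5.12). Cpr72Ea had 19517 CPM at 16 h and 7923 at 20 h, with 16.1 left at 36 h. Cpr51A, Cpr97Ea and Cpr97Eb had log2 ratios of -2.41, -2.45 and -2.73.

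The 5 higher CPR genes differed in their levels at 12 h and 36 h. Cpr12A had 489 CPM at 12 h, 19.9 at 16 h, 602 at 20 h and 0.802 at 36 h. Its 16 h level lay below both neighbours. Cpr49Ae had 41.9 and 341 CPM (log2 ratio 3.02, 95% interval 2.97 to 3.08), after 1.37 at 12 h, and it stayed at 311 at 36 h. Edg91, a gene first found through its ecdysone dependence, had 1.81 and 34.0 CPM, after 11.7 at 12 h and before 0.154 at 36 h. At 20 h Edg91 was among the leading genes of an epithelium-like cluster of 148 cells, together with Dro and ple. Cpr76Bc had 0.0140, 0.163, 2.66 and 0.452 CPM from the youngest library to the oldest. Cpr50Cb had 0.724, 1.66, 4.48 and 59.8 CPM in the same order. In epithelium-like cells 19 of 28 tested CPR genes were lower at 20 h and 5 were higher.

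Chitin genes were mostly a little below their 16 h level. Of 24 tested members 20 had ratios below 0, 4 were lower and 2 higher past the threshold, and the median was -0.41. The counts past the threshold are near the shares over all genes, 14.1% lower and 6.65% higher. The chitin deacetylases serp and verm, which shape the chitin of the apical matrix, had log2 ratios of -2.20 and -1.12, and the chitin-binding obst-B went from 521 to 204 CPM. kkv, the chitin synthase, had 91.0 and 56.8 CPM, a ratio of -0.68. The 2 higher genes were Cht5 and knk. Cht5, a moulting chitinase, had 11.5 and 34.7 CPM (log2 ratio 1.59, 95% interval 1.48 to 1.70), and knk, which is needed for chitin organisation, had 80.0 and 209.7. The tracheal markers serp, verm and Gasp were among the lower genes, and their part in the chitin result was not tested; the tracheal regulator trh was close at both ages, at 11.6 and 12.0 CPM.

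Enzymes of cuticle tanning pointed in both directions. Of 13 tested genes 4 were higher and 3 lower, with a median of 0.29, beside 6.65% higher and 14.1% lower over all genes tested. Of the 4 higher genes 1 had under 1 CPM at 16 h and passed the minimum only through 20 h. The genes given next all had ratios above 0, and the 3 lower genes are not among them. ple, the tyrosine hydroxylase that makes DOPA, had 5.40 CPM at 16 h and 48.2 at 20 h (log2 ratio 3.16). Pu, which provides its cofactor, had 2.19 and 7.51 CPM, and b, an enzyme for beta-alanine, 0.593 and 4.89. Ddc, the DOPA decarboxylase, had 30.1 and 50.6 CPM, a ratio of 0.75. At 20 h ple and Dro were highest in the same epithelium-like cluster of 148 cells. Its leading genes include Edg91 and ple beside immune genes such as AttA and DptA. At 16 h an epithelium-like cluster of 28 cells had AttA, ple, Dro and Ddc among its leading genes. The clusters were built in each library alone, and the part of cluster size in the changes of these genes was not tested.

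Genes of the apical extracellular matrix and of hair and bristle outgrowth were higher at 20 h or near their 16 h level. ZP-domain proteins hold the epithelial surface to its matrix. All 12 tested ZP genes had ratios above 0, 3 of them past 1, with a median of 0.62. tyn (trynity) had 330.3 and 724 CPM, nyo 12.6 and 26.3, and neo 83.0 and 168. The lowest of the list, zye and cyr, had 0.03 and 0.03, values whose sign turns with the scaling.

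Of 19 tested genes for bristle shafts and cell hairs 8 were higher and 0 lower, with a median of 0.64; this list shares m, dyl, mey, neo, nyo and tyn with the ZP list. sha (shavenoid), needed for hair outgrowth, had 2.24 and 9.09 CPM (log2 ratio 2.02, 95% interval 1.77 to 2.28). f (forked), an actin bundler of the shaft, had 4.06 and 10.7 CPM, and jv (javelin) 2.86 and 7.46. All 3 were far higher at 36 h, at 98.6, 259 and 147 CPM. frtz (fritz), a planar polarity effector, had 4.23 CPM at 16 h and 23.9 at 20 h but 14.1 at 12 h and 11.8 at 36 h, so no steady trend. The other planar polarity genes past 1 were dsh, the Frizzled signal transducer, at 1.01, and mwh, which limits hair number, at 1.03. The remaining 13 of 16 tested members lay within a log2 ratio of 1.

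Cell cycle genes were lower almost throughout. Of 31 tested members 24 were lower at 20 h and 0 higher, with a median log2 ratio of -1.53. aurB, the mitotic kinase Aurora B, had 223 CPM at 12 h, 86.6 at 16 h, 8.77 at 20 h and 0.290 at 36 h (log2 ratio -3.30, 95% interval -3.40 to -3.21). PCNA, the replication clamp, had 162 and 43.5 CPM, Cdk1 141 and 49.2, and CycB 43.5 and 15.1. Replication licensing genes lay in the same direction, with ratios of -2.27 for Mcm2, -1.74 for Mcm3 and -1.22 for geminin. Mitotic and replication genes were thus both in the lower set, and each of aurB, PCNA, Cdk1 and CycB was lower at each later male age.

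Some regulators were close at both ages. stg, the Cdc25 phosphatase that triggers mitosis, had 604 CPM at 16 h and 640.2 at 20 h, and E2f1, the activator of S-phase genes, 107 and 135. CycD and Mcm7 had ratios of -0.06 and -0.11. Of 8 genes known for stopping the cycle 3 were lower and 0 higher, beside 14.1% and 6.65% of all genes tested. dap, the CDK inhibitor Dacapo, had 132 and 47.6 CPM, and fzr, which starts cyclin destruction at exit, 12.9 and 14.8. Histone transcripts that could be counted were lower in 5 of 7 cases. His2Av had 968 and 359.8 CPM, and His3.3B had 854 and 896. The repeated histone genes share reads.

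Within epithelium-like cells 23 of 31 cell cycle genes were lower and 0 higher, with a median of -2.09. At 16 h 487 cells fell in a cluster with sensory precursor markers, whereas no 20 h cluster took that name. Precursor cells can lie in clusters of another name, and the clusters were built in each library alone, so no share of precursors is given for 20 h.

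Transcripts that mark sensory organ precursors were in part lower. Of 15 tested members 5 were lower and 0 higher at 20 h, with a median of -0.32. Over all genes tested 14.1% were lower and 6.65% higher, with a median of -0.24. Of the 15 members 6 had ratios above 0, and the summed list had 623 CPM at 16 h and 711 at 20 h. In epithelium-like cells 2 of 11 tested members were lower and 2 higher. Of the 5 lower genes, sens had under 1 CPM at 20 h and passed the minimum only through 16 h. sens, the zinc-finger factor that stabilises precursor fate, had 22.4 CPM at 12 h, 4.73 at 16 h and 0.215 at 20 h (log2 ratio -4.43, 95% interval -5.11 to -3.87). cato, a proneural-type factor of later sensory cells, had 25.0 and 2.56 CPM, and the proneural ac and ase had ratios of -1.51 and -1.38. neur, which activates Delta, was not lower, at 38.3 and 62.4 CPM. The neuronal list lay the other way: 24 of 26 tested genes had ratios above 0, 4 were higher and 2 lower, and the median was 0.71. Of these 26, 3 had under 1 CPM at 1 of the ages and passed only through the other.

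Most of those neuronal genes shared a modest ratio. fne, an ELAV-type RNA-binding protein, had 52.2 and 99.7 CPM, futsch, a microtubule-associated protein of axons, 61.9 and 113, and brp, of the presynaptic active zone, 13.3 and 21.4. Rdl, a GABA receptor subunit, had 6.57 and 23.1 CPM (log2 ratio 1.81, 95% interval 1.67 to 1.96). Neuron-like cells were 3.28% of cells at 16 h and 5.16% at 20 h. Within those cells 26 genes of the list reached a mean of 5 CPM, of which 3 were higher and 0 lower, with a median of 0.51. Of all 6158 genes tested in those cells 308 (5.0%) were higher and 994 (16.1%) lower, with a median of -0.20. fru, which encodes sex-specific transcription factors of the nervous system, had 24.8 CPM in neuron-like cells at 16 h and 102 at 20 h, and 3.72 and 8.96 over all cells.

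Notch pathway genes split between targets. Of 22 tested members 6 were higher and 3 lower, with a median of 0.20. Over all genes tested 6.65% were higher and 14.1% lower, and the lower count is near that share. N and its ligand Dl kept similar levels, at 549.8 and 596 CPM and at 210.4 and 234. All 6 higher genes were targets in the E(spl) complex: E(spl)m3-HLH had 39.0 and 259 CPM (log2 ratio 2.73, 95% interval 2.68 to 2.79), and E(spl)m7-HLH 63.9 and 322. The lower ones were Brd at -2.52, E(spl)m4-BFM at -1.44 and E(spl)mgamma-HLH, which had 18.1 and 9.02 CPM. At 12 h E(spl)m7-HLH had 465 CPM and E(spl)m3-HLH 171, so for these the 16 h library again had the lowest of the 4 male values. In glia-like cells, at a mean of at least 5 CPM, 11 of 19 tested Notch genes were higher at 20 h and 2 lower, beside 7.49% and 14.4% of all 5593 genes tested there.

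EGF receptor pathway genes showed small ratios in 1 direction. 17 of 19 tested members had ratios above 0 and none reached 1, with a median of 0.37. The feedback regulators sty (sprouty) and kek1 had 95.9 and 164 CPM and 204 and 365 CPM. The repressor aop had 241 and 429.9. The ligand spi had 62.5 and 49.1 CPM and was 1 of the 2 below 0. In epithelium-like cells sty, aos and kek1 had ratios of 1.20, 1.08 and 1.06.

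The ecdysone list contained 24 tested genes, of which 4 were higher and 0 lower, with a median of 0.32. The shares over all genes tested were 6.65% higher and 14.1% lower, with a median of -0.24. The ecdysone receptor was level: EcR had 335 and 341 CPM and usp 13.7 and 14.1. Eip78C, a nuclear receptor of the early response, had 17.5 and 50.7 CPM (log2 ratio 1.54, 95% interval 1.45 to 1.63). Blimp-1, a transcriptional repressor induced by ecdysone, had 15.8 and 42.6, and ImpE1 8.15 and 22.3. Each of these 3 continued upward to 36 h, where Eip78C had 542 CPM, Blimp-1 752 and ImpE1 463.

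Late and prepupal members differed. Hr3, which links the early and prepupal responses, had 1.51 and 2.89 CPM and Hr4 10.8 and 19.5, ratios of 0.93 and 0.85. ftz-f1, the prepupal competence factor, had 15.4 and 10.9 CPM, and br, the pupal specifier, 15.8 and 9.41. Eip93F, which gives competence for adult programmes, had 1292 and 1893 CPM. ImpE2 had 453 CPM at 12 h, 4456 at 16 h, 6920.2 at 20 h and 262 at 36 h, the highest level in the 20 h library. Of 5 tested timing genes mamo alone passed 1, with 565 and 1384 CPM.

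**Figure D2:**
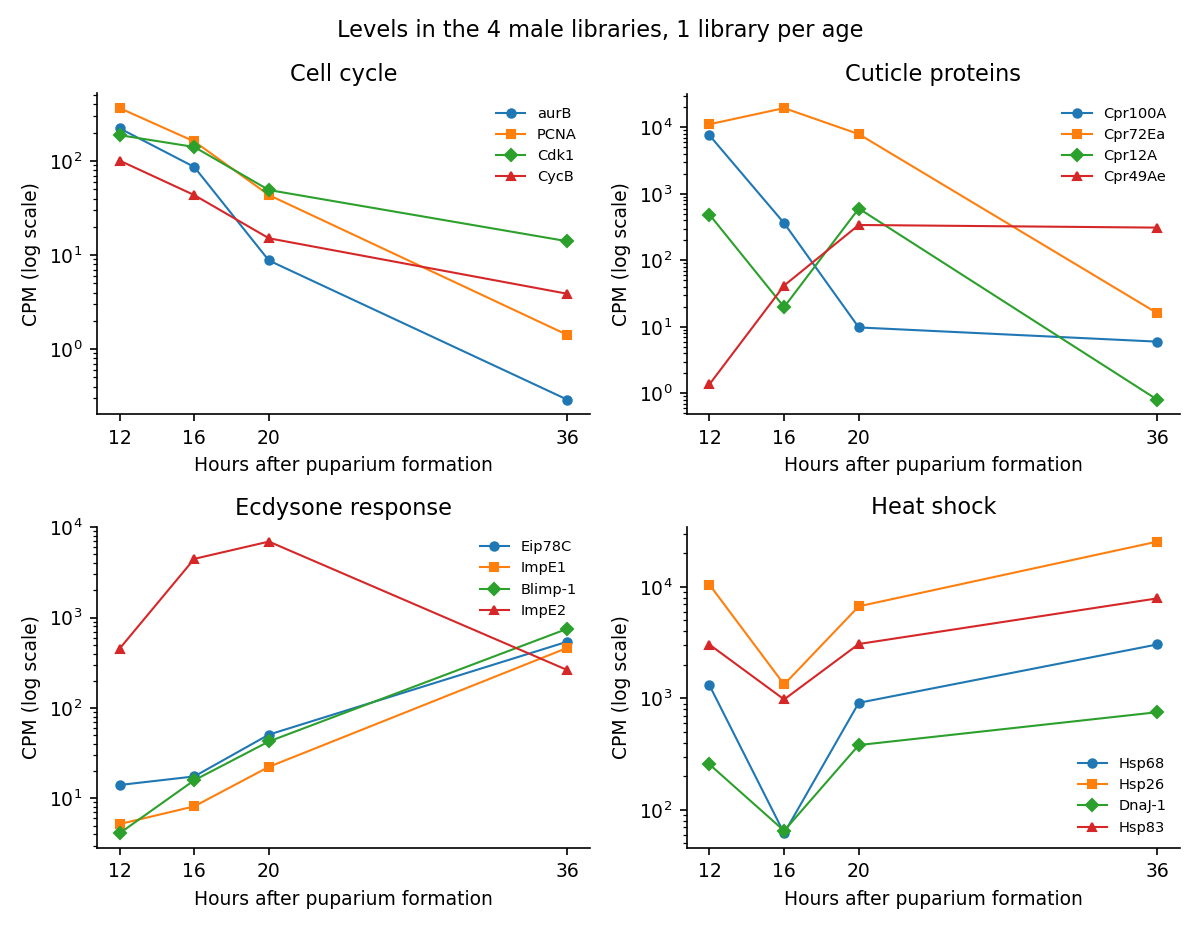
CPM, on a log scale, of 16 genes in the 4 male libraries at 12, 16, 20 and 36 h after puparium formation, 1 library per age, joined by lines only to guide the eye. aurB, PCNA, Cdk1 and CycB are lower at each later age; Eip78C, ImpE1 and Blimp-1 are higher at each later age; Hsp68, Hsp26, DnaJ-1 and Hsp83 are lowest at 16 h.

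Sex and leg patterning genes were mostly level. dsx had 118 CPM at 16 h and 114 at 20 h, a log2 ratio of -0.04. The dosage compensation RNAs lncRNA:roX1 and lncRNA:roX2, which mark male cells, had 626 and 912 CPM and 1038 and 995 CPM. Of 22 genes of the proximal-distal axis 1 was past the threshold, Sp1, a zinc-finger factor for leg growth, at 675 and 1400.4 CPM. dac had 151 and 146 CPM and bab2 92.6 and 109.8. Of 19 compartment and dorsal-ventral genes 1 was past it, the Wnt feedback inhibitor nkd, at 260.0 and 686 CPM. None of 12 joint genes was.

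**Figure D3:**
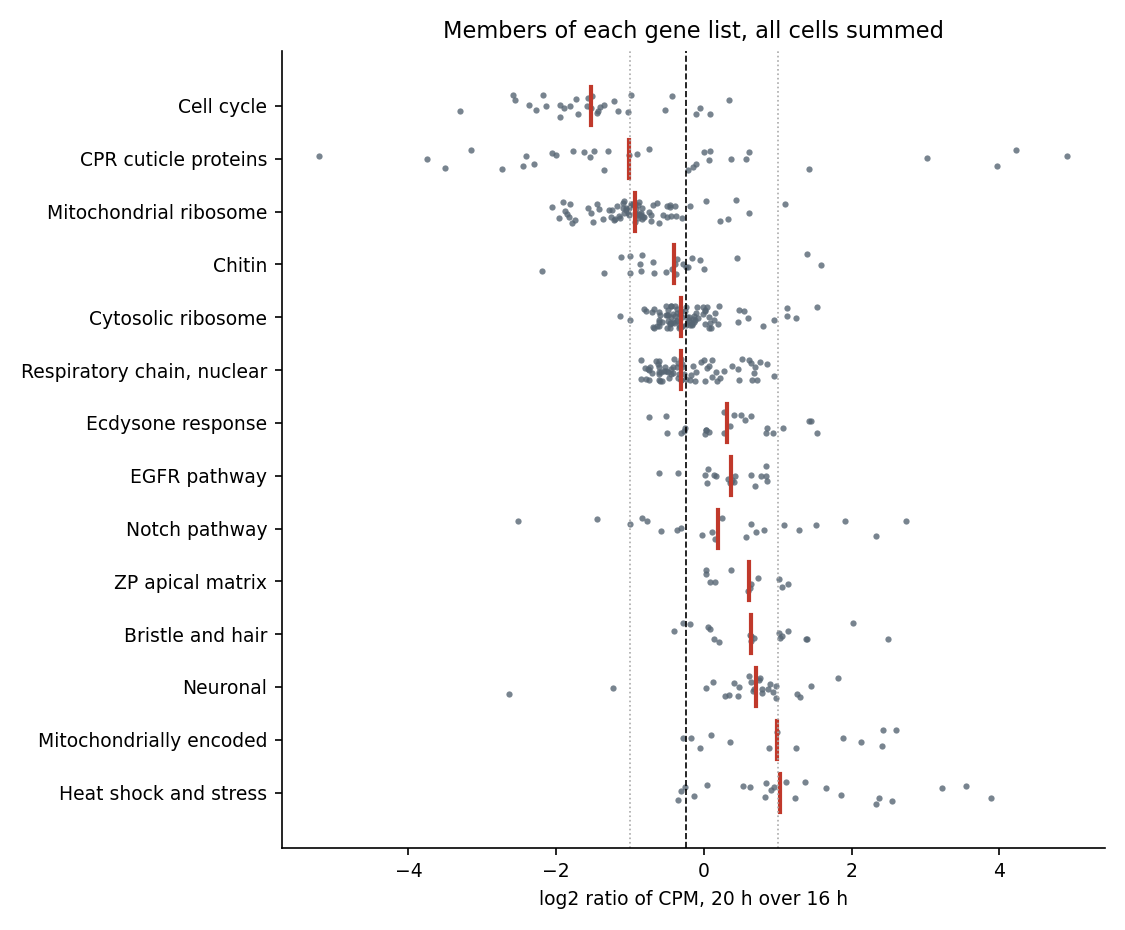
log2 ratio of CPM, 20 h over 16 h, for each tested member (grey points, spread vertically only for legibility) of 14 gene lists, with the list median as a red bar. The dashed line is the median of all 8238 tested genes, -0.24, and the dotted lines are -1 and 1. The cell cycle median is -1.53 and the heat shock and stress median 1.03.

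Heat shock and stress genes were higher at 20 h. Of 22 tested members 11 were higher and 0 lower, with a median of 1.03, and the list accounted for 1.79% of 16 h UMIs and 3.06% of 20 h UMIs. Hsp68, an inducible chaperone, had 61.7 CPM at 16 h and 913 at 20 h (log2 ratio 3.89, 95% interval 3.84 to 3.93). Hsp26 had 1333 and 6695, DnaJ-1 65.0 and 382, and Hsp83 979 and 3075. The near-identical Hsp70 genes share reads; the copy listed as Hsp70Bc had 25.6 and 299 CPM. Hsp27 had 7401 and 5834 CPM, a ratio below 0.

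In the other male libraries these chaperones were also above the 16 h level. Hsp68 had 1309 CPM at 12 h and 3048 at 36 h, and Hsp26 10471 and 25496. At 16 h 14.3% of cells had an Hsp68 UMI and 1% of cells held 43.4% of them, whereas at 20 h 92.3% of cells had one. These detection rates also depend on depth, which was greater at 20 h. By class the summed list went from 18450 to 27742 CPM in epithelium-like cells, from 13035 to 34903 in neuron-like cells, from 13380 to 44474 in glia-like cells and from 39583 to 50302 in hemocyte-like cells. The labels give the same dissociation temperature and time for both ages, and the part of handling was not tested.

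**Figure D4:**
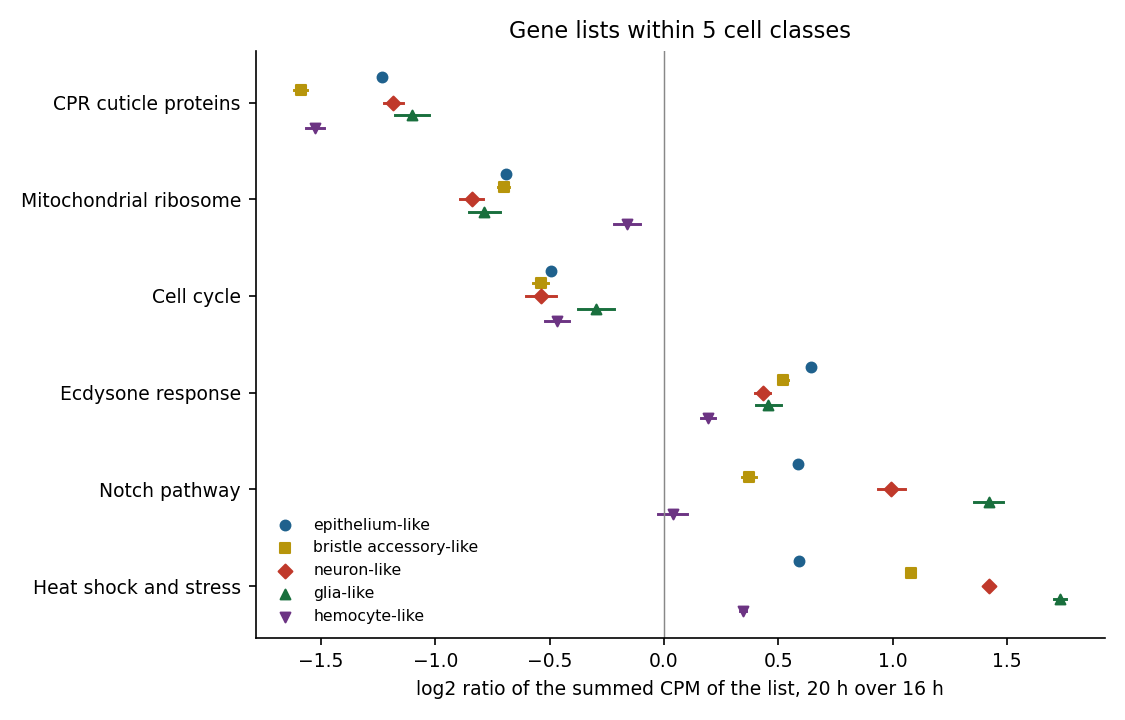
log2 ratio of the summed CPM of 6 gene lists, 20 h over 16 h, within 5 cell classes named from marker genes; lines are exact 95% intervals for counting error, mostly hidden by the symbols. The CPR, mitochondrial ribosome and cell cycle lists lie below 0 in all 5 classes. The ecdysone and stress lists lie above 0 in all 5 classes. For the Notch list hemocyte-like cells lie near 0. Over all cells Cpr72Ea makes up most of the CPR sum and ImpE2 most of the ecdysone sum.

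Gene lists were also read within 5 cell classes, at a mean of at least 5 CPM. Cell cycle genes had medians of -2.04 in epithelium-like, -1.98 in neuron-like, -1.02 in hemocyte-like, -0.69 in bristle accessory-like and -0.66 in glia-like cells. Mitochondrial ribosome genes had -0.92, -1.11, -0.36, -0.90 and -1.05 in the same order. The summed CPR level was 28481 and 12103 CPM in epithelium-like cells and 2913 and 1356 CPM in glia-like cells, which make no cuticle. Over all cells most of the CPR sum was Cpr72Ea, so these sums need not describe the family. Free RNA in droplets was not tested. Which cells the classes hold rests on 10 and 9 epithelium-like clusters, 2 and 3 bristle accessory-like clusters, and 1 cluster at each age for neuron-, glia- and hemocyte-like cells. Unnamed clusters held 14.7% of cells at 16 h and 16.6% at 20 h, the latter with a median of 1630.5 UMIs. A single gene could differ from its list: Osi12, of the Osiris family, had 5.29 CPM in bristle accessory-like cells at 16 h and 51.9 at 20 h. In epithelium-like cells it had 0.708 CPM at 20 h. The Osiris list as a whole went the other way in bristle accessory-like cells, with a summed level of 675 and then 215 CPM. Of its 6 members tested there 4 were lower and 1 higher, with a median of -1.63. Of all 5814 genes tested there 746 were lower and 396 higher.

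Genes of protein synthesis and respiration showed a pattern by transcript length. Of 88 tested cytosolic ribosomal protein genes 4 were higher and 2 lower, with a median of -0.31. Both counts are below the shares over all genes tested, 6.65% higher and 14.1% lower, where the median was -0.24. The ribosomal list accounted for 40.6% of 16 h UMIs and 36.1% of 20 h UMIs. The higher ones were RpL41, at 6395 and 13909 CPM, RpL29, RpL39 and RpS28-like, and RpL22 was among the lower, at 639 and 319. Median transcript length was taken from the BDGP6 annotation for 8203 of the tested genes. All 6 ribosomal protein genes with transcripts under 500 bases had ratios above 0 (median 1.12), and 66 of the 82 longer ones had ratios below 0 (median -0.32).

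The same held for other families. All 10 short nuclear genes of the respiratory chain and ATP synthase were above 0 (median 0.62), and 46 of 59 longer ones were below (median -0.36). Of 6 short mitochondrial ribosomal protein genes 4 were above 0, and 64 of 66 longer ones were below (median -0.98). Across the members, log2 length and log2 ratio had Pearson correlations of -0.72, -0.69 and -0.48 (88, 69 and 72 genes, all from the same 2 libraries). Over all 8203 tested genes with a length the Pearson correlation was 0.11, so the direction within these families was not that of all genes. The short genes took 7.18%, 4.06%, 9.08% and 8.36% of cytosolic ribosomal UMIs in the 12, 16, 20 and 36 h male libraries, so the 16 h library was the lowest. With all tested genes in 10 equal groups by length, the median ratio was -0.15 in the shortest group (93 to 781 bases), -0.58 in the next and 0.07 in the longest.

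Subtracting the median of each length group, an alternative added after seeing the data, also centres all ratios, so it was set beside a single shift by the overall median. Centring alone gave 812 higher and 710 lower genes, and the length groups gave 762 and 615, with 533 and 610 of these among the original calls. The cytosolic ribosome median went from -0.31 to -0.07 by centring alone and to 0.08 by length group. The respiratory chain median went from -0.31 to -0.07 and to 0.03. Most of either move was thus the centring, and the sign turned in the last step.

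The count of lower mitochondrial ribosomal protein genes moved with this choice. Unadjusted, 32 of 72 were lower and 1 higher, with a median of -0.93; centring left 18 lower and length groups 13, with medians of -0.69 and -0.65. For cell cycle genes 24 lower of 31 became 21 and 20, with medians of -1.29 and -1.31. For CPR genes 17 lower of 33 became 16 and 14, with medians of -0.78 and -0.74. Library preparation and age cannot be told apart as the source of the length pattern.

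**Figure D5:**
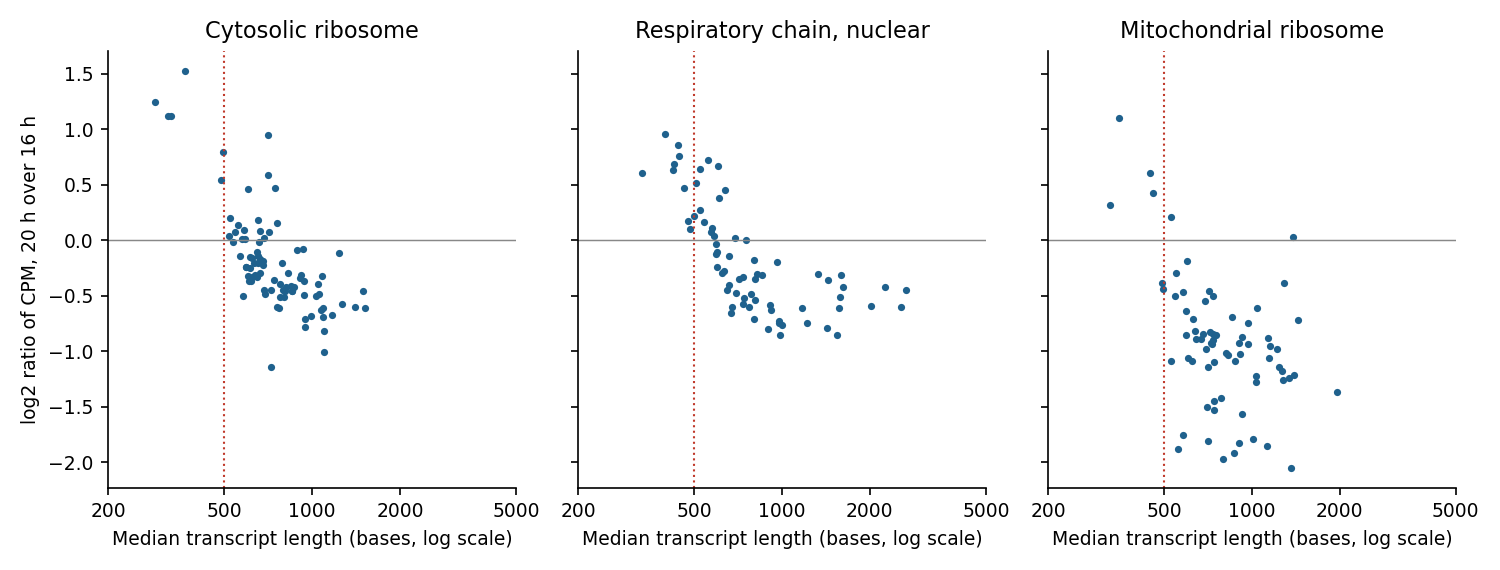
log2 ratio of CPM, 20 h over 16 h, against the median annotated transcript length in bases (log scale) for 88 cytosolic ribosome, 69 nuclear respiratory chain and 72 mitochondrial ribosome genes; the dotted line marks 500 bases. The shortest transcripts lie above 0 in the first 2 panels, and nearly all points past 500 bases lie below 0 in the third.

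The 13 protein-coding mitochondrial genes did not move together. 6 were higher, all of them subunits of complex I: mt:ND6 had 34.1 and 207 CPM (log2 ratio 2.60, 95% interval 2.54 to 2.66) and mt:ND1 128 and 472. mt:CoI, the catalytic subunit of complex IV, had 2168 and 1924 CPM. At 12 h mt:ND6 had 169 CPM and mt:ND1 345, so for these the 16 h library was again lowest of the 4. These transcripts come from shared precursors, so counts of neighbouring genes are not independent. The summed list made up 0.959% of 16 h UMIs and 1.05% of 20 h UMIs.

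The remaining metabolic and cell biological lists moved little. Their counts stand beside 6.65% higher and 14.1% lower over all genes tested. None of 11 citric acid cycle and 20 secretory pathway genes passed the threshold, and of 12 glycolytic genes Hex-A, a hexokinase, alone did, at 36.9 and 74.9 CPM. Of 13 apoptosis genes 3 were lower: grim had 9.25 and 1.19 CPM, skl 7.21 and 1.11, and the effector caspase Drice 37.8 and 18.2. The death inducers hid and rpr lay the other way, at ratios of 0.78 and 0.95. Of 17 matrix genes 2 were higher, Mmp1, a matrix metalloproteinase, at 8.55 and 27.2 CPM, and Loxl1 at 1.15. Of 34 adhesion genes Tollo and crb alone passed 1, crb, the apical determinant Crumbs, at 114 and 264 CPM. Myc, the growth regulator, had 15.2 and 38.2 CPM in a ribosome biogenesis list whose median was -0.51.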

How the data were processed

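First tarsal segments of male pupae were profiled as single cells in 1 library per age. The authors deposited UMI counts per gene and barcode, which per the file headers come from Cell Ranger 7.0.0, with build BDGP6 per the submitters' processing notes; each count table holds 12000 barcodes. Cells needed at least 500 genes and at most 10% mitochondrial UMIs. No doublets were removed in the main values; Scrublet calls were left out as an alternative. Counts were summed per library, without GFP, mCherry and GAL4, and 0.5 was added to both counts for a ratio. Genes with a mean of at least 1 CPM were counted. A gene under 1 CPM at 1 age passed only through the other age. Beside the CPR and antimicrobial lists, this held for 4 Osiris, 3 neuronal, 2 cytosolic ribosome and 2 proximal-distal genes. It also held for 1 gene each of the sensory precursor, tanning, odorant-binding protein, Notch, joint, matrix, histone and cell cycle exit lists. Intervals (exact Poisson for a level, exact conditional binomial for a ratio, Clopper-Pearson for a share) cover counting error only. Each library was clustered alone with scanpy 1.11.5 (2000 variable genes, 30 components, 15 neighbours, Leiden resolution 1), and clusters were named from 10 marker lists; names rebuilt in this way may differ from the study's. TMM factors came from edgeR 4.0.16. Annotation positions and lengths were matched on gene IDs for 14739 of 14782 features with UMIs. Named genes were the 12 largest and 12 smallest log2 ratios among genes reaching 200 UMIs where they were higher, the 6 largest gains and losses in CPM, the same by ratio for epithelium-like cells (6 each), and members of the 37 gene lists, first the 3 with the largest ratios. The members and lists were chosen with earlier results of these data known. The ratio script was tested on simulated data. Python 3.11.15 and R 4.3.3 were used. The 2 female libraries were not used here.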

Additional observations from a re-analysis of the deposited data

How the results depend on the processing

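The counts of genes past a log2 ratio of 1 depended mostly on the minimum level and the scaling. Over all cells, a minimum mean of 5 CPM left 288 higher and 677 lower genes, and no minimum gave 1896 and 2805. In epithelium-like cells these settings gave 270 and 671, and 1894 and 2780. TMM scaling gave 749 lower genes over all cells, and 766 higher and 685 lower in epithelium-like cells. Of 2 alternatives chosen after seeing the data, ratios centred on their median gave 710 lower genes over all cells, and ratios centred within groups of transcript length gave 615, so most of the fall from 1160 is in the centring. The other 27 counts, among them those from thinning to 2000 UMIs per cell, which left out 1191 and 1491 cells, stayed within 1.5 times the main value. Of the genes higher and lower over all cells, 491 of 548 and 929 of 1160 kept the call after thinning, and none changed sign under thinning, the 2 stricter cell filters or doublet removal. The 2 scalings move all ratios alike by under 1 and cannot turn the sign of such a gene. In epithelium-like cells 1 of 1187 lower genes changed sign when clusters led by 1 gene of another class were counted in. No paired analysis was possible because each age has 1 library, which also means that no replicate could be left out. A gene with 3 UMIs in a library has 0.0445 CPM at 16 h and 0.0258 at 20 h, and ratios near those levels rest on few molecules.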
